A study of Mus musculus with 38 samples.

Results

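The imprinted loci of Plagl1, Grb10 and Zrsr1 were described here through 5 genes, Plagl1 on chromosome 10 and Grb10, Ddc, Zrsr1 and Commd1 on chromosome 11, out of 21938 protein-coding genes annotated in GENCODE M21 on GRCm38. Grb10 was read along with its neighbour Ddc, and Zrsr1 along with Commd1, whose intron holds it. The genes had been listed because earlier results of these data showed differences between IκBα-WT and IκBα-KO cells there, so every difference between the genotypes at these genes is a description and was given no test.

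ChIP-seq (chromatin immunoprecipitation followed by sequencing) had been done for H3K4me3, H3K27me3, H3K9me3, H3K27ac and H3K4me1 in mouse embryonic stem cells of the line ES-E14TG2a, kept in medium with serum and LIF and taken at 0 h, before differentiation. IκBα-KO (KO) clones had been made with CRISPR/Cas9 guides against exon 1 of Nfkbia, the gene of IκBα, and lacked the protein, while IκBα-WT (WT) clones had received scrambled guides. There were 3 WT and 3 KO libraries for every modification, from independent clones according to the methods, so 30 of the 38 samples were ChIP libraries and 8 were inputs. The question was which chromatin marks lay over each locus in cells with and without IκBα.

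Imprinted genes are expressed from the maternal or the paternal chromosome according to a DNA methylation mark set in the germ line at an imprinting control region. The methylated allele of such a region carries H3K9me3, brought there with the zinc-finger protein ZFP57, which binds TGCCGC when its CpG is methylated, and the other allele usually carries H3K4me3. Plagl1 (also Zac1) encodes a zinc-finger transcription factor and is transcribed from the paternal allele of a CpG-rich downstream promoter, Zrsr1 is a paternally expressed retrogene, and Grb10 encodes an adaptor of growth factor receptors that is mostly maternally expressed from its upstream promoter and paternally expressed from downstream promoters in neurons. Reads were not assigned to alleles in these lists, so values for both parental chromosomes were summed.

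The sequence of the 3 downstream or retrogene promoters is shown first, since the H3K4me3 and H3K9me3 values described later lie on it. Each stretch is 240 bases of the plus strand of GRCm38.p6 from the RefSeq genome, inside the H3K4me3 consensus of the KO (sequence called in at least 2 of 3 libraries), placed as near to its middle as possible without touching an annotated exon. Capitals mark TGCCGC or its reverse complement GCGGCA. The stretches lie at chr10:13091025-13091264 (Plagl1, intronic), chr11:12026325-12026564 (Grb10, intronic) and chr11:22971765-22972004 (immediately before the annotated start of Zrsr1, inside an intron of Commd1).
Plagl1: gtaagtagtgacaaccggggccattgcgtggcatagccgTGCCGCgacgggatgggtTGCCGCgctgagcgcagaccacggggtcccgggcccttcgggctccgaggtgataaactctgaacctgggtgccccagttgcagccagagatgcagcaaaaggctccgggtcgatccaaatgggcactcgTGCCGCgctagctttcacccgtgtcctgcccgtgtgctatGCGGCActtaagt
Grb10: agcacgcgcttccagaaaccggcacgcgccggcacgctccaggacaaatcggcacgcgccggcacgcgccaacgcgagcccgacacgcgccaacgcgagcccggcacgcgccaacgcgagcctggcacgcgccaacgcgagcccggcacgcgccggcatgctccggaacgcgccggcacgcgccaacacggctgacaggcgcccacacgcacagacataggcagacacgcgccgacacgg
Zrsr1: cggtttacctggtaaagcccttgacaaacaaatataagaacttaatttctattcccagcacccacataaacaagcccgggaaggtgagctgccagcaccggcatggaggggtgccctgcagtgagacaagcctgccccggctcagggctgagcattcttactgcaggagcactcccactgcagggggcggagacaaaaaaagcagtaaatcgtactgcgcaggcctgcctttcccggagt
The Plagl1 stretch held the motif 4 times and 21 CpG dinucleotides. The Grb10 stretch held no match in this window and 46 CpG, and the Zrsr1 stretch held no match and 8 CpG. Over the whole consensus region there were 6 matches and 77 CpG in 925 bp at Plagl1, 4 matches and 107 CpG in 864 bp at Grb10, and no match and 84 CpG in 1413 bp at Zrsr1. Among windows of 240 bp at the middle of all 24967 KO H3K4me3 consensus regions, 15.6% held the motif at least once and 0.0921% held it at least 4 times, and the median was 12 CpG. Among all 32851 RefSeq promoter sequences of 300 bp, 11.6% held it, and for the members it was found in 1 copy at the Plagl1 promoter, the upstream Grb10 promoter and the upstream Commd1 promoter.

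The lists gave regions called as enriched over input at an FDR or q-value under 0.05 in each library separately. H3K4me3 lists held 21836 to 26806 peaks per library, H3K27me3 41182 to 52348 regions, H3K9me3 35979 to 52748, H3K27ac 44977 to 57645 and H3K4me1 70180 to 76172. ChIP reads inside regions totalled 8.91 M to 10.9 M per library for H3K27me3, 8.55 M to 12.1 M for H3K9me3, 22.9 M to 28.3 M for H3K27ac and 34.7 M to 36.0 M for H3K4me1, whereas the H3K4me3 lists gave no counts. The H3K9me3 library of KO replicate 2 had both the fewest regions and the fewest reads. Of 6 stem cell markers (Pou5f1, Nanog, Sox2, Esrrb, Zfp42 and Tdgf1), 5 held H3K27ac and 4 held H3K4me3 over the promoter in all 6 libraries. The promoter was read from 5000 bp upstream to 100 bp downstream of the annotated start. In that window Esrrb held H3K27me3 and neither of the other marks, and the rest of the gene was not read for the markers. Of 4 fibroblast markers, Col1a1, Col1a2 and Col3a1 held no H3K4me3 call, and Thy1 held H3K4me3 in all 6 libraries, with H3K27me3. H3K27ac was called over Thy1 in all 6 libraries, over Col1a2 in 0 and over Col3a1 in 1 WT library, and it covered 4100, 5100 and 4300 bp at the Col1a1 promoter in WT and 0, 777 and 2300 bp in KO. The part of such markers in the values at the members was not tested. H3K4me3 over the promoter of Nfkbia itself covered 478, 730 and 703 bp in WT and 0, 360 and 585 bp in KO, overlapping ranges that do not check the labels, as the cut lies inside the gene.

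Each gene was read over its body and 5 kb on either side, as bp covered by calls. The H3K9me3 coverage of Plagl1, Grb10, Zrsr1 and Commd1 was lower in all 3 KO than in all 3 WT libraries, and that of Ddc overlapped, which makes 4 of 5 genes lower and 0 higher. Over the 12110 protein-coding windows with an H3K9me3 call, 11.4% were lower and 4.76% higher in this sense. H3K4me3 coverage was higher in all KO libraries at 3 of 5 genes (Plagl1, Zrsr1 and Commd1) and lower at 0, against 24.5% and 7.25% of 15151 windows. H3K27me3 coverage was higher at 2 of the 4 genes with a call (Plagl1 and Grb10) and lower at 1 (Ddc), against 10.9% and 7.61% of 13437 windows. H3K27ac coverage was higher at 3 genes (Plagl1, Zrsr1 and Commd1) and lower at 1 (Grb10), against 21.6% and 8.2% of 16607 windows, and H3K4me1 coverage was higher at 2 (Plagl1 and Commd1) and lower at 2 (Grb10 and Ddc), against 11.7% and 15.4% of 17552. The window of Commd1 contains that of Zrsr1 and shares its calls, so the counts here and below take a shared locus as 2 genes. Since the genes were listed on this contrast, nothing can be read from how these counts compare with the other windows.

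The median difference, KO minus WT, in the share of the window covered by H3K9me3 was -18.8 percentage points over the 5 genes and -0.51 over all windows with a call. For H3K27me3 it was 6.22 over 4 genes and 0.37 over all, for H3K27ac 5.33 and 1.92, for H3K4me1 3.88 and -0.68, and for H3K4me3 1.09 and 0.23.

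**Figure D1:**
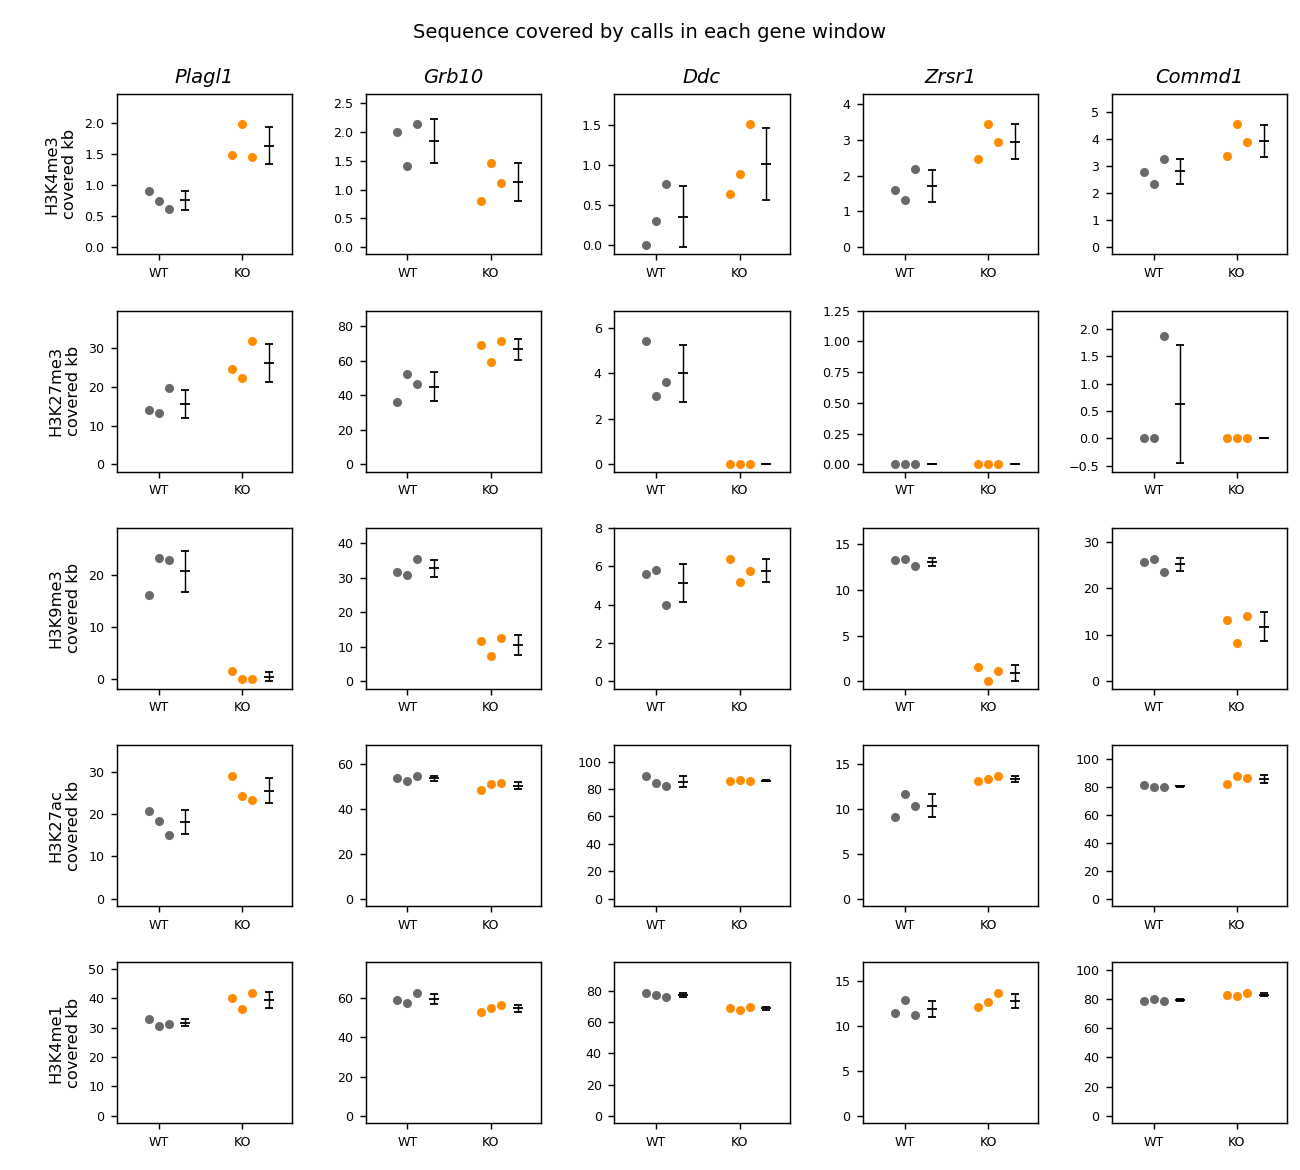
Sequence covered by calls (kb, vertical axis) in the window of each gene (columns) for each modification (rows), with a point per library, WT in grey and KO in orange, and the mean with SD (n = 3) in black beside them. In the H3K9me3 row the KO points lie below the WT points for Plagl1, Grb10, Zrsr1 and Commd1, and the ranges overlap for Ddc.

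The same was counted over windows of 1 kb on either side of annotated starts of protein-coding transcripts, of which the members have 12. H3K9me3 coverage was lower in all KO libraries at 4 of the 5 member windows with a call, against 5.5% of 3707 windows lower and 2.35% higher. These were the downstream starts of Plagl1, Grb10 and Commd1 and the start of Zrsr1. The downstream start of Commd1 and the start of Zrsr1 lay in the same H3K9me3 region. H3K4me3 coverage was higher at 1 (downstream Plagl1) and lower at 1 (upstream Grb10), against 18.3% and 7.19% of 15058. H3K27ac was higher at 0 and lower at 1 (upstream Grb10), against 3.16% and 2.95% of 19592. H3K4me1 was higher at 1 (downstream Plagl1) and lower at 2 (upstream Grb10 and upstream Commd1), against 1.21% and 6.94% of 21778, and H3K27me3 at 0 in either direction, against 3.24% and 2.98% of 12323.

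Calls of the 6 libraries were also merged wherever they overlapped, and a merged region counted as restricted if each of the 3 lists of a genotype held it and 0 of the 3 others did. The 5 gene windows touched 14 merged H3K4me3 regions, of which 2 were restricted to KO and 1 to WT, against 3.12% and 0.743% of 31237. They touched 9 H3K27me3 regions with 1 and 0 (1.8% and 1.32% of 58154), 10 H3K9me3 regions with 0 and 1 (0.427% and 2.58% of 61378), 11 H3K27ac regions with 0 and 0 (1.35% and 3.62% of 49887) and 14 H3K4me1 regions with 1 and 0 (1.49% and 2.09% of 69191).

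Plagl1 (ENSMUSG00000019817, chr10:13060504-13131694, plus strand) has an annotated start at the beginning of the gene and a downstream start 30284 bp further on, where 4 protein-coding transcripts begin. H3K9me3 calls covered 16200, 23200 and 22800 bp of the 81191-bp window in WT and 1600, 0 and 0 bp in KO. Thus the WT libraries lay far above all KO libraries, with means of 20733 ± 3931 (SD, n = 3) and 533 ± 924 bp, or 25.5% and 0.657% of the window. Most of this was a region at chr10:13086201-13103800, with exons over 3.24% of its length and otherwise intronic, which spanned the downstream start and was called in 3 WT and 0 KO libraries. It was covered over 10800, 16800 and 14600 bp in WT.

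A further pair of H3K9me3 regions in Plagl1 was called in all 3 WT libraries and in KO replicate 1. The region at chr10:13125001-13130600, at the 3′ end of the gene, was covered over 3200, 5000 and 5600 bp in WT and 800, 0 and 0 bp in KO. The region at chr10:13069001-13072600 was intronic and covered 2200, 1400 and 2600 bp in WT and 800, 0 and 0 bp in KO. With KO replicate 1 left out, the count of regions called in all WT and no KO libraries was 3 instead of 1.

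Within 1 kb of the downstream start, a window of 2226 bp, H3K9me3 covered all 2226 bp in each WT library and 0 bp in each KO library. Read density in the WT regions there was 114, 95.0 and 79.5 reads per kb. H3K4me3 went the other way, at 0 bp in every WT library and at 925, 1019 and 905 bp in KO. The peaks in KO had a fold enrichment over input of 6.17, 7.14 and 5.86, close in size to those at the upstream start (7.42, 6.10 and 10.0 in WT, 7.39, 7.72 and 6.18 in KO), where no library had an H3K9me3 call.

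H3K4me1, which accompanies enhancers and flanks promoters, covered 0 bp of the downstream start window in WT and 2226 bp in all 3 KO libraries. H3K27ac, a mark of active promoters and enhancers, was called there in 0 WT libraries and over 1600, 1800 and 0 bp in KO. H3K27me3, the Polycomb mark, was called at the downstream start in all 6 libraries. Over their whole length those calls had 33.0, 20.8 and 28.0 reads per kb in WT and 48.9, 52.7 and 49.3 in KO. In KO the downstream start therefore held H3K4me3 and H3K27me3 calls together, as did the upstream start in both genotypes. Every bp of the H3K4me3 consensus in the Plagl1 window lay under the H3K27me3 consensus, both in WT (723 bp) and in KO (1519 bp), while over the whole genome these shares were 34.1% and 28.3%.

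**Figure D2:**
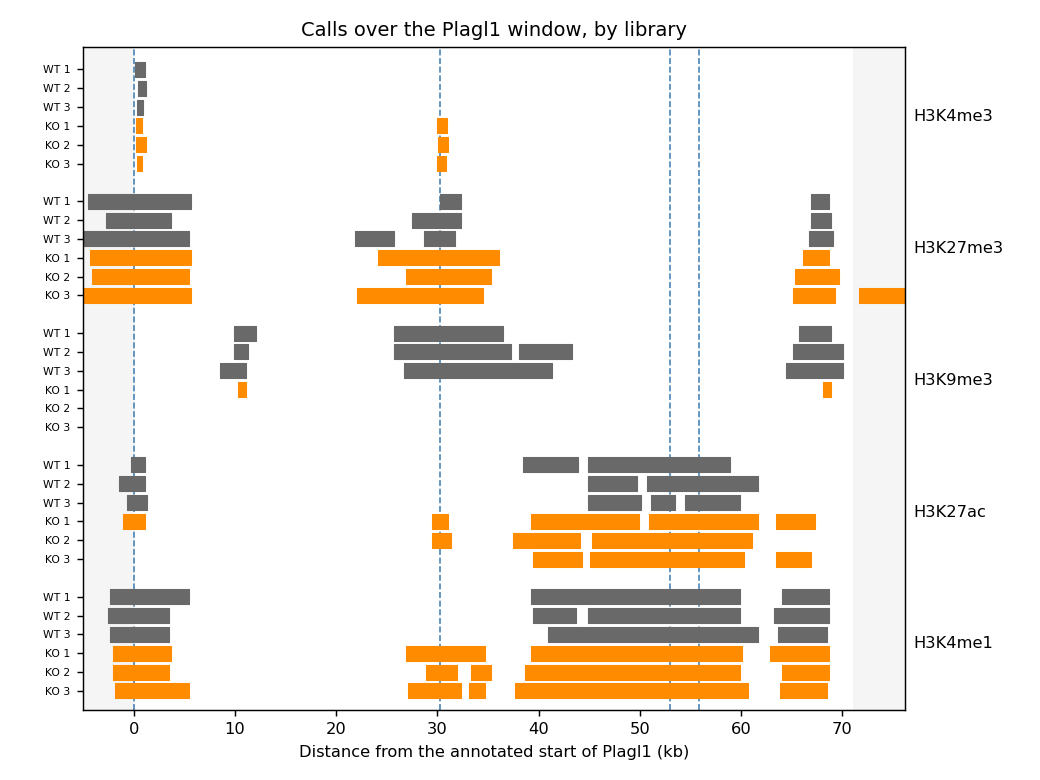
Calls over Plagl1 by library (rows, WT in grey, KO in orange, grouped by modification), against the distance from the annotated gene start in kb. Dashed lines mark annotated starts of protein-coding transcripts and shaded ends the 5 kb on either side of the gene. At the start 30.3 kb into the gene, H3K9me3 is called in the 3 WT libraries, and H3K4me3 and H3K4me1 in the 3 KO libraries.

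Over the whole Plagl1 window, H3K27me3 covered 14000, 13200 and 19697 bp in WT and 24600, 22400 and 31791 bp in KO. Much of the difference was around the downstream start, where the merged region chr10:13082401-13096600 was covered over 2000, 4800 and 6800 bp in WT and 12000, 8400 and 12400 bp in KO. A further H3K27me3 region at chr10:13132201-13144800, reaching from just past the 3′ end of the gene into unannotated sequence, was called in 3 KO libraries (5800, 5000 and 7000 bp) and 0 WT libraries, and was not of this kind at an FDR under 0.01.

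Over the Plagl1 window H3K27ac covered 20800, 18400 and 15000 bp in WT and 29000, 24200 and 23400 bp in KO, mostly in a block at chr10:13098001-13122200 that was called in all 6 libraries. H3K4me1 covered 33000, 30600 and 31400 bp in WT and 40200, 36400 and 41800 bp in KO. The KO values were higher in both cases, and for H3K4me1 the region at chr10:13087401-13095800 over the downstream start, called in 3 KO (7800, 5000 and 6800 bp) and 0 WT libraries, made most of the difference. At the upstream start, H3K27ac covered 1304, 2001 and 1704 bp in WT and 2001, 0 and 0 bp in KO, which overlapped.

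Grb10 (ENSMUSG00000020176, chr11:11930508-12038683, minus strand) has an upstream start at the beginning of the gene and a downstream start 10712 bp further on, from which 3 protein-coding transcripts begin. H3K9me3 covered 31800, 31000 and 35600 bp of its 118176-bp window in WT and 11800, 7400 and 12600 bp in KO. The groups lay apart, with means of 32800 ± 2458 and 10600 ± 2800 bp (SD, n = 3), and unlike at Plagl1 every KO library kept calls. The density inside the calls was also lower, at 50.5, 44.3 and 43.2 reads per kb in WT and 36.4, 34.3 and 28.6 in KO. The difference in density was -12.9 reads per kb, and it was -8.17 after scaling each library to the reads in all its calls. Among the 6130 windows with H3K9me3 in all 6 libraries, 4.19% were lower and 3% higher in density in all KO libraries, and 2 of the 3 genes with calls in all 6, Grb10 and Commd1, were lower.

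The H3K9me3 of Grb10 formed a domain between the upstream start and the middle of the gene, chr11:12002001-12035800, with exons over 1.86% of its length. In each WT library it began 2.88 kb after the gene start and reached 35.5, 34.7 and 36.7 kb. It was made of 2 calls in each WT library and of 4, 3 and 3 calls in KO, the nearest KO call beginning 11.3, 10.5 and 18.9 kb after the gene start and the farthest KO call ending at 34.3, 30.7 and 33.9 kb. Each KO far edge thus lay nearer the gene start than each WT far edge, and the stretch next to the upstream start held no H3K9me3 call in KO.

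At the downstream start (window of 3648 bp) H3K9me3 covered the full 3648 bp in all 3 WT libraries and 1200, 2000 and 0 bp in KO. H3K4me3 was called there in all 6 libraries, over 497, 266 and 804 bp in WT and 803, 881 and 864 bp in KO, so that the ranges overlapped by 1 bp. The fold enrichment was 4.02, 4.93 and 3.56 in WT and 5.34, 4.84 and 7.63 in KO, again with overlap. H3K4me1 covered 3648, 2277 and 2077 bp in WT and 3277, 3277 and 3477 bp in KO, and H3K27ac was called in 0 of 6 libraries.

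The upstream start, from which most tissues transcribe the maternal allele, differed the other way. H3K4me3 covered 1405, 1149 and 1331 bp of its 3283-bp window in WT and 0, 331 and 254 bp in KO, a mean of 1295 ± 132 against 195 ± 173 bp (SD, n = 3). Within it, the region at chr11:12037557-12038120 was called in 3 WT libraries (518, 401 and 437 bp) and 0 KO libraries. With calls joined across gaps of up to 1000 bp it was no longer a region of its own and the count of such regions was 0.

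H3K27ac at the upstream start covered 3200, 2600 and 2200 bp in WT and 0, 1600 and 2000 bp in KO, and H3K4me1 covered 3283 bp in each WT library and 2200, 2400 and 2200 bp in KO. The covered length of both was lower in all KO libraries. Over the whole H3K4me1 calls there, the mean density was 71.0, 60.8 and 50.4 reads per kb in WT and 87.9, 88.5 and 71.2 in KO. Those calls were 5800, 8400 and 12000 bp long in WT and 3800, 4000 and 4200 bp in KO. They held 412, 511 and 605 reads in WT and 334, 354 and 299 in KO. The higher density in KO therefore cannot be read as more H3K4me1 at the start itself. H3K9me3 was called at the upstream start in 0 of 6 libraries and H3K27me3 over the full window in all 6. H3K4me3 coverage was thus lower in KO at the upstream start and overlapped at the downstream start, and over the whole gene it overlapped too (1999, 1415 and 2135 bp in WT, 803, 1459 and 1118 bp in KO).

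Grb10 was largely divided into a Polycomb part and an active part. The H3K27me3 calls that touched the gene window began 12.5 to 23.3 kb before the gene start. A call of KO replicate 3 lay apart at 83.3 to 86.3 kb, where that replicate also had an H3K27ac call. The others reached into the gene as far as 31.7, 62.5 and 51.5 kb in WT and 64.1, 60.3 and 64.3 kb in KO. Further calls upstream carried the merged region, chr11:11974401-12080200, beyond those upstream edges. The H3K27ac block over the rest of the gene began at 63.3, 61.5 and 61.7 kb in WT and 63.7, 61.9 and 63.3 kb in KO. The edge of H3K27ac therefore lay between 61.5 and 63.7 kb in all 6 libraries, and H3K27me3 reached close to it in every KO library and in WT replicate 2.

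In the Grb10 window H3K27me3 covered 35883, 52083 and 46683 bp in WT and 69083, 59283 and 71083 bp in KO, with 62.5, 59.8 and 64.7 reads per kb in WT and 73.6, 69.1 and 70.0 in KO. Both measures were higher in all KO libraries (of 9733 windows called in all 6, 10% were higher and 9.57% lower in density, and of the 2 genes measured Grb10 was higher and Plagl1 overlapped). The difference in density was 8.58 reads per kb, 4.44 at an FDR under 0.01 and 1.91 after scaling to the reads in all calls, so it depended on the setting. H3K9me3 and H3K27me3 shared much of the domain, with 86.3% of the WT H3K9me3 consensus and 88.5% of the KO one under H3K27me3, against 2.53% and 3.22% over the genome. H3K27ac covered 53893, 52693 and 54893 bp in WT and 48693, 51093 and 51893 bp in KO, and H3K4me1 58893, 57693 and 62693 bp and 53093, 55093 and 56693 bp, both lower in all KO libraries. For Grb10 the groups overlapped for H3K27ac with flanks of 10 kb (58200, 56800 and 59893 bp in WT, 53693, 56093 and 56893 bp in KO) and for H3K4me1 without flanks (52376, 50376 and 55176 bp in WT, 48093, 49976 and 51693 bp in KO).

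**Figure D3:**
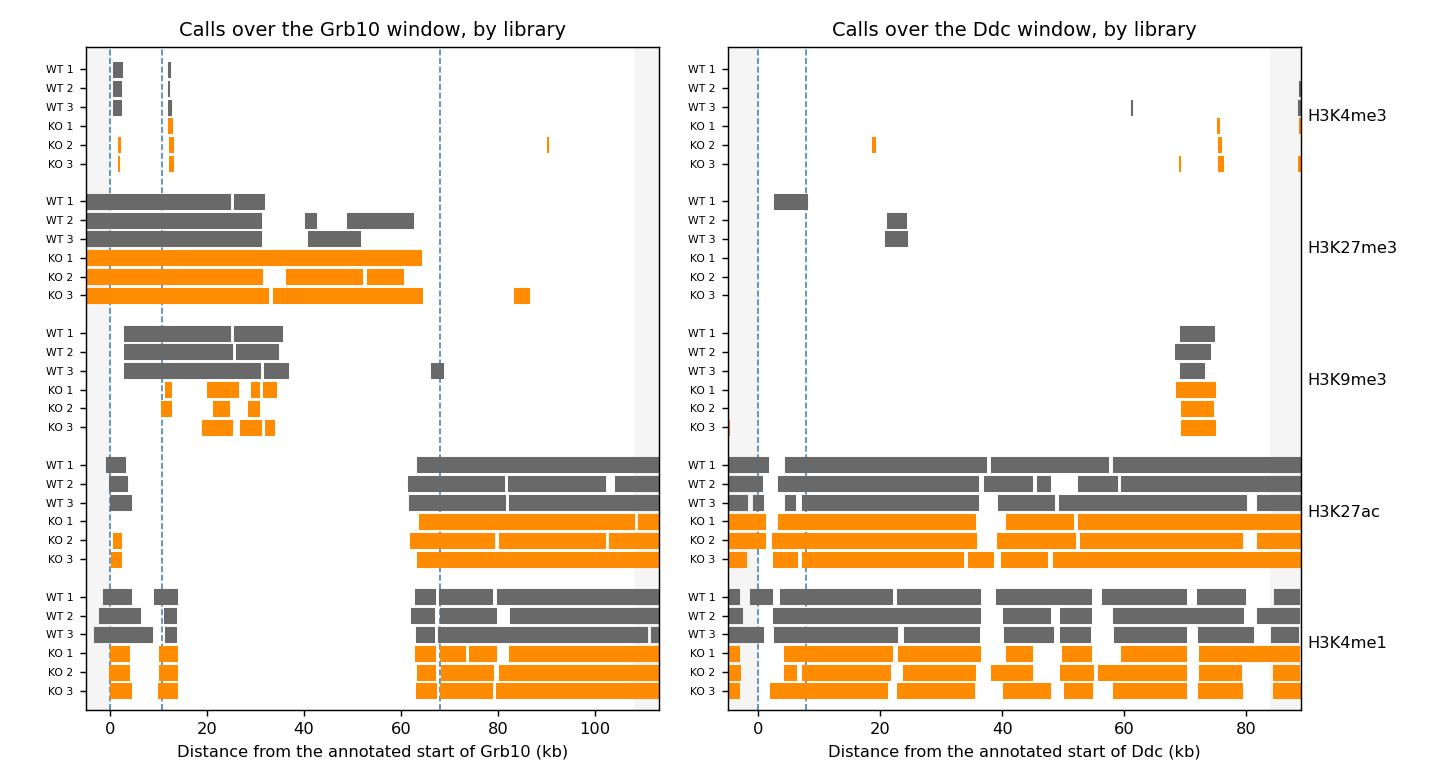
Calls over Grb10 (left) and Ddc (right) by library, drawn as for Plagl1 (WT in grey, KO in orange, distance from each gene's own start in kb, both genes read from the minus strand). In Grb10 the H3K9me3 calls of WT run from 2.88 kb to between 34.7 and 36.7 kb, those of KO begin between 10.5 and 18.9 kb and end between 30.7 and 34.3 kb, and H3K27ac begins between 61.5 and 63.7 kb in all 6 libraries.

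Ddc (ENSMUSG00000020182, chr11:11814101-11898144, minus strand) encodes the decarboxylase that makes dopamine and serotonin and is the neighbour downstream of Grb10. Its H3K9me3 did not follow that of Grb10, with 5600, 5800 and 4000 bp in WT and 6400, 5200 and 5744 bp in KO, which overlap. Nearly all of it was a region at chr11:11823201-11829800, intronic over most of its length and called in all 6 libraries. H3K9me3 density over the gene window was 97.5, 77.1 and 93.2 reads per kb in WT and 115, 96.9 and 100 in KO, which overlapped. The log2 ratio of ChIP to input in that region was 2.32, 2.13 and 2.58 in WT and 2.21, 2.05 and 2.17 in KO, which overlapped too.

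H3K27ac covered almost the whole Ddc window in both genotypes, at 89644, 84244 and 82244 bp in WT and 86244, 86444 and 85844 bp in KO. H3K4me1 covered 78744, 77344 and 76144 bp in WT and 69144, 67944 and 69544 bp in KO, at 92.9, 93.3 and 93.6 reads per kb in WT and 83.4, 86.2 and 83.4 in KO. Both the length and the density of H3K4me1 were lower in every KO library, as density was in 18.8% of 16679 windows. At the start of the gene no library had an H3K4me3 or H3K9me3 call.

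H3K27me3 covered 5400, 3000 and 3600 bp of the Ddc window in WT and 0 bp in each KO library, but the WT calls were not at the same place. WT replicate 1 had its call at chr11:11890201-11895600 and WT replicates 2 and 3 at chr11:11873801-11877400, at the low densities of 26.5, 24.3 and 26.4 reads per kb. An H3K4me3 region at chr11:11821940-11822873, far inside the gene with 19.4% of its bases exonic, was called in 3 KO (294, 445 and 772 bp) and 0 WT libraries. Over the whole window H3K4me3 covered 0, 300 and 754 bp in WT and 629, 880 and 1510 bp in KO, including the edge of the peak at the start of Fignl1, and the groups overlapped.

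Zrsr1 (ENSMUSG00000044068, chr11:22972005-22976496, plus strand) lies inside Commd1 (ENSMUSG00000051355, chr11:22896136-22982382, minus strand), and H3K9me3 covered nearly the whole 14492-bp window of Zrsr1 in WT. The values were 13196, 13396 and 12596 bp in WT and 1596, 0 and 1196 bp in KO, means of 90.1% and 6.42% of the window. The WT domain was a single call in each library, at 77.9, 65.1 and 73.8 reads per kb. The calls of KO replicates 1 and 3 had 33.2 and 31.7 reads per kb and lay upstream of the gene, from -6.20 kb to -3.40 kb at most relative to its start, and within 1 kb of the start H3K9me3 covered all 2001 bp in the 3 WT libraries and 0 bp in the 3 KO libraries.

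H3K4me3 at the start of Zrsr1 was called in all 6 libraries, so the WT libraries held H3K4me3 and H3K9me3 over the same sequence. Of the WT H3K4me3 consensus in the window (1650 bp), 98.6% lay under the H3K9me3 consensus, against 2.24% over the whole genome, and of the KO consensus (3074 bp) 0 bp did. At Grb10 the shares were 29.6% in WT and 36.8% in KO, and at Plagl1 0 bp in both. Among the 30935 transcript-start windows of all protein-coding genes, 541 (1.75%) held calls of both modifications in at least 2 WT libraries and 476 (1.54%) in at least 2 KO libraries, and among the 12 windows of the members 2 did in WT (Zrsr1 and downstream Grb10) and 1 in KO (downstream Grb10).

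The highest fold enrichment of H3K4me3 at the Zrsr1 start was 4.03, 7.84 and 5.01 in WT and 13.9, 9.02 and 10.8 in KO, with every KO library above every WT library. Means were 5.63 ± 1.98 and 11.3 ± 2.48 (SD, n = 3), and of 12853 transcript-start windows with peaks in all 6 libraries 21% were higher and 13.6% lower in this sense. The covered length at the start overlapped, but over the whole Zrsr1 window it was 1598, 1313 and 2195 bp in WT and 2468, 3439 and 2940 bp in KO, all higher in KO. Part of the difference was in a further peak over the single exon of the retrogene, chr11:22973263-22974771, which covered 511, 0 and 734 bp in WT and 919, 1509 and 1307 bp in KO. The Zrsr1 window also took in the edge of the peak at the upstream start of Commd1, which reached further into it in KO.

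H3K4me1 in the Zrsr1 window covered like lengths (11496, 12896 and 11296 bp in WT, 12092, 12696 and 13692 bp in KO) but was denser in every KO library, at 70.6, 57.3 and 72.1 reads per kb in WT and 103, 97.2 and 101 in KO. Of the 16679 windows with H3K4me1 in all 6 libraries 10.6% were denser in KO, and 2 of the 5 members (Zrsr1 and Commd1) were. For H3K27ac density the groups overlapped at all 5 genes, where 9.08% of 14625 windows were higher and 6.17% lower. H3K27ac covered 9096, 11696 and 10296 bp in WT and 13096, 13296 and 13696 bp in KO. H3K27me3 was called in 0 of 6 libraries, so that Zrsr1 differed from Plagl1 and Grb10 in having no H3K27me3 call at its start.

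Commd1, which takes part in copper metabolism and protein sorting, shared the calls of Zrsr1. Its H3K9me3 was 25600, 26400 and 23600 bp in WT and 13200, 8200 and 14000 bp in KO. Outside the Zrsr1 window this came to a mean of 12137 ± 1026 bp in WT and 10869 ± 2388 bp in KO, which overlapped, against 25200 ± 1442 and 11800 ± 3143 bp with it. A pair of H3K9me3 regions towards the 3′ end of Commd1, chr11:22897801-22906200 and chr11:22915201-22919000, was called in all 6 libraries.

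H3K4me3 of Commd1 was higher over the whole window in KO (2795, 2343 and 3265 bp in WT, 3369, 4545 and 3878 bp in KO), and outside the Zrsr1 window it was 1099 ± 87.2 and 982 ± 109 bp, which overlapped. The Zrsr1 window ends inside the peak at the upstream Commd1 start, chr11:22981059-22982693, so this split cut that peak. In the uncut window around that start H3K4me3 covered 1122 ± 89.3 bp in WT and 1232 ± 198 bp in KO, which also overlapped. The upstream promoter of Commd1, away from the retrogene, held H3K4me3 with a fold enrichment of 8.80, 10.3 and 14.0 in WT and 6.85, 8.73 and 13.5 in KO, ranges that overlapped, and no H3K9me3. H3K27ac outside the Zrsr1 window was 69720 ± 1906 bp in WT and 71853 ± 2650 bp in KO, which overlapped. H3K4me1 was longer in KO also outside the Zrsr1 window (67353 ± 115 and 70155 ± 580 bp), while at the upstream start it covered 2199 bp in each WT library and 1399 bp in each KO library. The density of H3K9me3 over the Commd1 window was 69.0, 60.5 and 63.8 reads per kb in WT and 54.6, 56.6 and 45.5 in KO, a difference of -12.2 that was -4.98 after scaling to the reads in all calls. In the region at chr11:22897801-22906200 it was 52.9, 51.9 and 50.8 reads per kb in WT and 61.9, 57.6 and 53.5 in KO, so there every KO library was the denser in ChIP reads. Input density in those calls was higher in every KO library too. The log2 ratio of ChIP to input there was 1.4996, 1.6979 and 1.7803 in WT and 1.4486, 1.4898 and 1.4209 in KO. That ratio was thus lower in every KO library, and the higher ChIP density cannot be read as more H3K9me3.

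**Figure D4:**
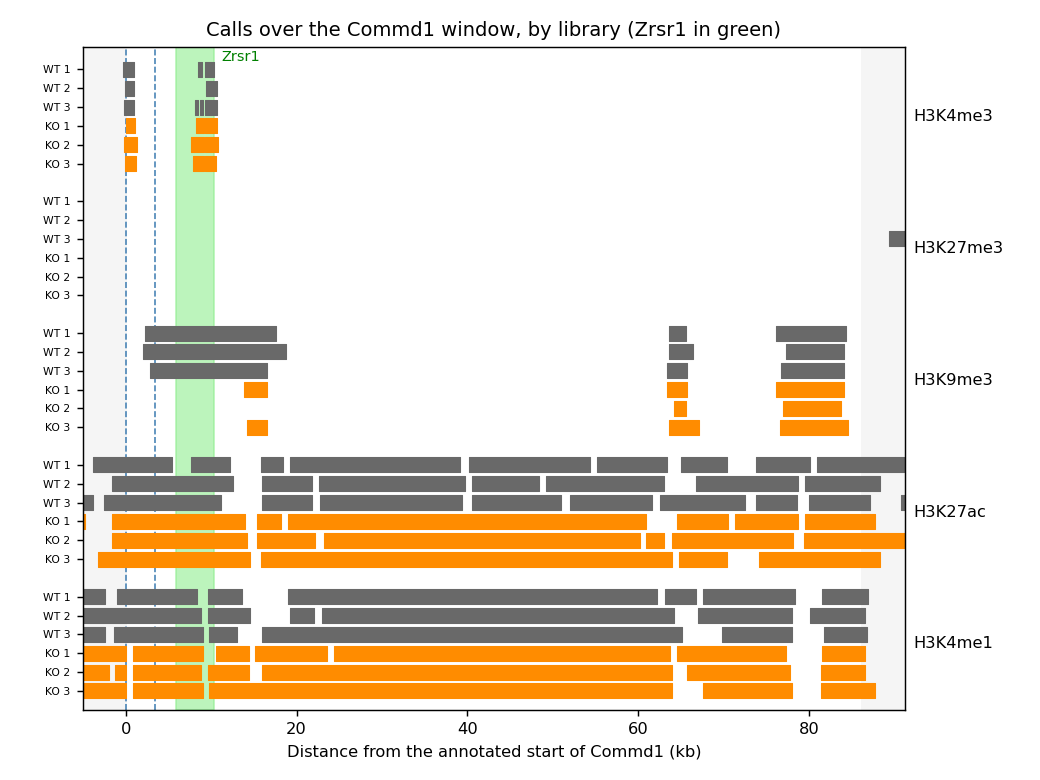
Calls over Commd1 by library, drawn as for Plagl1, with the body of Zrsr1 shaded green. The H3K9me3 calls of the 3 WT libraries span Zrsr1, and in KO the calls nearest to it lie beside it in replicates 1 and 3 and are missing in replicate 2. The H3K9me3 regions towards the 3′ end of Commd1 are called in all 6 libraries.

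**Figure D5:**
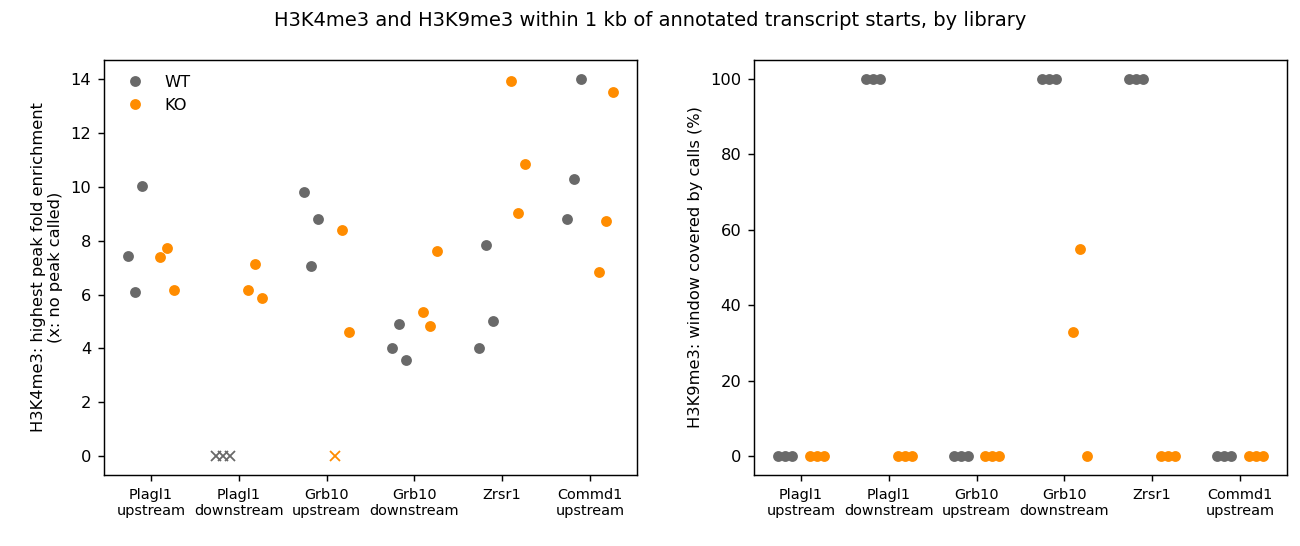
Highest fold enrichment of an H3K4me3 peak (left, crosses at 0 where no peak was called) and share of the window covered by H3K9me3 calls (right, %) within 1 kb of 6 annotated starts, by library (WT in grey, KO in orange). H3K9me3 covers the downstream starts of Plagl1 and Grb10 and the start of Zrsr1 fully in the 3 WT libraries. H3K4me3 is called at the downstream Plagl1 start in the 3 KO libraries, and at the upstream Grb10 start in the 3 WT and 2 KO libraries.

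Across all transcript-start windows, 30 of 30935 (0.097%, in 29 genes) had less H3K9me3 and more H3K4me3 coverage in every KO than in every WT library. The downstream start of Plagl1 was the member among them, and 8 of the 29 genes were on a list of 22 other imprinted genes. For H3K9me3 over gene windows, 18 of the 21 listed genes with a call were lower in all KO libraries and 0 higher, and for H3K4me3 14 of 22 were higher and 0 lower. H3K27me3 was higher at 9 and lower at 1 of 21, H3K27ac higher at 5 and lower at 3 of 21, and H3K4me1 higher at 11 and lower at 2 of 22. The shares over all gene windows are those given above beside the members. The 22 genes were listed with earlier results of these data known, so nothing can be read from how these counts compare with those shares. Several listed genes share a window or overlap, such as H13 with Mcts2 and Igf2r with Airn.

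For H3K9me3, other genes near the members held both directions. Of 19 protein-coding genes within 500 kb of a member, 13 held an H3K9me3 call. Of these, 5 were higher and 2 lower in all KO libraries, against 4.76% and 11.4% of all windows with a call. For H3K4me3, 5 of 17 were higher and 0 lower, against 24.5% and 7.25%. For H3K27me3, 2 of 11 were higher and 0 lower, against 10.9% and 7.61%. H3K27ac was higher at 4 and lower at 2 of 18, against 21.6% and 8.2%. H3K4me1 was higher at 3 and lower at 4 of 18, against 11.7% and 15.4%.

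The base composition of the H3K9me3 regions is given as a description only. The motif was chosen with earlier results of these data known, and the loci were known as imprinted. The regions of like length set beside them were matched on length only and not on CpG, although the motif holds a CpG. The Plagl1 region over the downstream start held 252 CpG in 17600 bp, or 14.3 per kb, and 8 copies of TGCCGC on either strand, and the Zrsr1 region held 221 CpG, or 13.2 per kb, and 6 copies in 16800 bp. The smaller Plagl1 regions held 7.22 CpG per kb and 0 copies at chr10:13069001-13072600 and 14.1 CpG per kb and 4 copies at chr10:13125001-13130600, with medians of 8 and 7.8 CpG per kb in regions of like length. The Grb10 domain held 348 CpG, or 10.3 per kb, and 6 copies in 33800 bp. Merged H3K9me3 regions of a length within 20% had medians of 8.40, 8.36 and 8.04 CpG per kb for the region over the downstream Plagl1 start, the Zrsr1 region and the Grb10 domain, and 1.11%, 3.66% and 12.9% of them held as many copies of the motif.

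The Ddc region at chr11:11823201-11829800 held 8.64 CpG per kb and no copy of the motif, as against 36.1% of regions of like length with a copy. The Commd1 regions at chr11:22897801-22906200 and chr11:22915201-22919000 held 4.76 and 8.42 CpG per kb and 1 copy each. Soft-masked repeats made up 19.1% of the Plagl1 region, 14.9% of the Grb10 domain, 38.5% of the Zrsr1 region and 18.4% of the Ddc region, with medians of 49.8%, 52.2%, 50.1% and 42.7% in regions of like length. These are descriptions of a few regions.

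Input reads were counted inside the calls of each library. Where calls differ between the genotypes, the input densities come from different sequence, so the ratios cannot settle copy number, which was not tested. Relative to all calls of the same modification, the log2 ratio of KO to WT input density at the members was between -0.12 and 0.32, and chromosomes 10 and 11 as a whole were between -0.05 and 0.00. The highest values, 0.31 at Plagl1 and 0.32 at Ddc for H3K9me3, rest for Plagl1 on the calls of 1 KO library. For Ddc the value rests on calls in every library, but all libraries of a genotype share 1 input. Input density in those calls had a mean of 22.9 reads per kb in WT and 30.5 in KO. This sets 1 input against 1 input and is not a replicated difference.

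The protein-coding genes whose covered share followed a member most closely over the 30 libraries, by Pearson's r, included Mcts2 for Zrsr1 (0.98), Syna for Plagl1 (0.94), Tvp23b for Grb10 (0.96), Rfx2 for Ddc (0.998) and Lrrc8a for Commd1 (0.998). The 30 points share their modification in sets of 6, and modifications differ in covered share at most genes. The covered share of Mcts2 by H3K9me3 had a mean of 87.1% in WT and was 0 in KO, and its H3K4me3 7.15% and 18.2%. The next on the likeness lists were Lama3 and Gm10271 for Plagl1, Dlg2 and Slc47a2 for Grb10, Sgk1 and Dst for Ddc, Setd4 and 4930548H24Rik for Zrsr1, and Ntmt1 for Commd1.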

How the data were processed

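The study's methods give Trim Galore trimming, alignment to GRCm38 with Bowtie2 for H3K4me3, H3K27me3 and H3K4me1, and removal of multimapping, low-quality and blacklisted reads; they do not discuss H3K9me3. The deposited H3K4me3 files are MACS2 peaks with a fold enrichment (a ratio to input), −log10 p-values and q-values and a score, without read numbers. The deposited files of the other 4 modifications are epic2 regions in steps of 200 bp with the count of ChIP and of input reads, a p-value, an FDR, a log2 fold change over input and a score, called in each library with 1 input per genotype; the sequencing depth itself is not in these lists. Labels and methods differ on the antibody used for H3K27ac. Autosomal, X and Y calls were used here, with GENCODE M21 genes. Covered bp is the length of a window under calls, and reads of a call cut by a window were shared out by length. A density at a transcript start is therefore a mean over the whole calls that reach it. Windows for transcript starts reached 1 kb on either side, with starts within 2 kb joined. Values do not overlap when all 3 of a genotype lie above all 3 of the other. The sequences came from RefSeq. The members, the imprinted genes and the motif were chosen with earlier results of these data known, and no test was made. The interval steps were tested on simulated calls. The named regions were those called in 3 libraries of a genotype and 0 of the other, and the widest of each gene. Scripts used Python 3.11.15, numpy 2.4.6, pandas 2.3.3 and matplotlib 3.10.9. A gene on the likeness list of Commd1 is not reported here.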

Additional observations from a re-analysis of the deposited data

How the results depend on the processing

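Covered lengths of the 5 genes were recomputed at an FDR or q-value under 0.01, without flanks, with flanks of 10 kb, with equal numbers of top-ranked calls and with each library left out. Of the differences whose groups did not overlap, 66 values under the first 4 settings and all 108 without a library moved by less than 1 SD of the replicates, and none changed sign. The other 6 were without flanks -6963 bp for Ddc H3K4me1, -4492 for Zrsr1 H3K9me3 and 565 for Zrsr1 H3K27ac, with 10 kb flanks -13600 for Zrsr1 H3K9me3, and with equal numbers of calls -13063 for Zrsr1 H3K9me3 and 11267 for Commd1 H3K4me1. The count of genes lower in KO was 1 for H3K4me3 with equal numbers of calls, 0 for H3K27ac with 10 kb flanks and 1 for H3K4me1 without flanks, Grb10 being the gene lost in both. Restricted regions were 0 for H3K4me3 in WT when joined across 1000 bp and 0 for H3K27me3 in KO at an FDR under 0.01. With a library left out the ranges were 0 to 1 for genes with lower H3K4me3 (1 without WT or KO replicate 2), 0 to 1 for H3K27me3 regions of WT (1 without WT replicate 1), 1 to 3 for H3K9me3 regions of WT (3 without KO replicate 1), 0 to 1 for H3K27ac regions of KO (1 without KO replicate 2 or 3) and 0 to 1 for H3K27ac regions of WT (1 without KO replicate 1). Apart from the construction of each setting, the cause was not tested. Of the differences in density, 13 moved by more than 1 SD, 10 of them on scaling reads to all calls. No paired analysis was possible because the results come from no test. A call that was not made can be a matter of depth, and each genotype had 1 input per experiment.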
